A study of Drosophila melanogaster with 72 samples.

Results

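The 10 genes described here are the insulin-like peptide genes Ilp2, Ilp3, Ilp5, Ilp6, Ilp7 and Ilp8, the insulin receptor gene InR, the receptor substrate gene chico, the insulin-binding protein gene ImpL2 and the transcription factor gene foxo of Drosophila melanogaster. They were chosen by name and found by their FlyBase identifiers, all 10 of 10, among the 13925 genes that the series' 3 count tables share (23932 features in the longest table). All 10 passed the filter on low counts in every comparison below.

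Insulin signalling in the fly starts with small secreted peptides that bind a single receptor tyrosine kinase, InR. The active receptor recruits Chico, phosphoinositide 3-kinase is activated, and the kinases Pdk1 and Akt pass the signal on to growth through mTORC1, while Akt keeps the transcription factor Foxo out of the nucleus. In fed flies the pathway promotes growth, storage and egg production, and when it is weak Foxo switches on genes of the fasting state. Among the Foxo targets known in flies are InR itself and Thor, the fly 4E-BP, which holds back cap-dependent translation downstream of mTORC1.

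The series measured poly(A) RNA in 72 libraries from whole adult females. For every sample, frozen powder of flies was divided between total RNA and a sucrose gradient, from which monosome RNA (on single ribosomes) and polysome RNA (on several ribosomes) were collected. At 15 d of age, 3 genotypes carried the Lpp[TS] driver, in 2 replicates each. They expressed Lsp2 (written Lpp[TS]>Lsp2) or Rheb (Lpp[TS]>Rheb), with Lpp[TS]>w1118 for control. Lpp drivers are active in the fat body, Lsp2 encodes a storage protein of the larval fat body and Rheb encodes the GTPase that activates mTORC1. Also at 15 d, 4 genotypes were studied in 3 replicates each, namely Thor[2];Lsp2[A10], Thor[2];Lsp2[B14], Lsp2[A10] and Lsp2[B14], and the last 2 genotypes were studied again at 2 to 3 d. All flies of these 6 groups thus carry one of the Lsp2 alleles, and the labels do not say which of A10 and B14 is the altered one. The design text calls the replicates biological, without saying how many flies made up each of them.

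Total RNA libraries held 15.3 to 39.7 M counts, monosome libraries 5.07 to 21.3 M and polysome libraries 3.13 to 31.3 M. Levels are given as CPM, a gene's counts scaled to a common library total of 1000000. Lsp2 averaged 7147 ± 761 CPM in Lpp[TS]>Lsp2 and 2423 ± 219 CPM in Lpp[TS]>Rheb total RNA, against 4.86 ± 0.527 CPM in Lpp[TS]>w1118, and Rheb averaged 923 ± 62.0 CPM in Lpp[TS]>Rheb, against 126 ± 0.351 CPM in Lpp[TS]>w1118 (SD, n = 2 each). Thor was not lower in libraries labelled Thor[2]: it averaged 294 ± 60.9 CPM in Thor[2];Lsp2[A10] against 253 ± 35.4 CPM in Lsp2[A10], and 291 ± 29.3 CPM in Thor[2];Lsp2[B14] against 272 ± 20.9 CPM in Lsp2[B14] (SD, n = 3 each), so the counts of Thor do not check that label, and it is used below as a label. Markers of neurons, fat body and ovary were present in every total RNA library. Markers of the male accessory gland summed to at most 3.49 CPM in any total RNA library. The follicle cell and eggshell list, 18 genes, summed to 36.1 to 143 CPM in the Lpp[TS] lines and to 6939 to 14310 CPM in the allele lines. In RNA from whole flies, fewer cells of a type and less RNA per cell cannot be told apart.

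The peptide genes of the brain's insulin-producing cells lie close together. Ilp2 (FBgn0036046, 3L:9799698-9800440, plus strand), Ilp3 (FBgn0044050, 3L:9801298-9802120, minus strand) and Ilp5 (FBgn0044048, 3L:9823349-9823897, minus strand) fall, with Ilp1 and Ilp4, into 25.5 kb of chromosome arm 3L (coordinates here are those of the BDGP6.54 annotation). Ilp8 (FBgn0036690, 3L:17029812-17032080, minus strand) lies on the same arm, and Ilp6 (FBgn0044047, X:2331493-2334658, minus strand) and Ilp7 (FBgn0044046, X:3667621-3668845, plus strand) lie on X. InR (FBgn0283499, 3R:21570248-21619321, minus strand) and foxo (FBgn0038197, 3R:14056945-14087978, plus strand) are on 3R, chico (FBgn0024248, 2L:10242512-10247078, minus strand) on 2L and ImpL2 (FBgn0001257, 3L:4224006-4236147, minus strand) on 3L. The exons of the peptide genes are short, with a summed exonic length of 478 bp for Ilp5 and 2413 bp for Ilp6 as the extremes, whereas InR has 11367 bp, foxo 4130 bp, chico 3578 bp and ImpL2 2667 bp. Exons of ImpL2 share 1651 bp with the same-strand gene CG46460 and those of chico share 380 bp with the opposite-strand asRNA:CR44995, and the strand setting of the counting is not given in the sources used here, so the counts of these 2 genes are less certain than the others.

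Per kilobase of exon, Ilp8 was the most abundant of the 10 genes in total RNA, with a median over the 24 libraries of 54.7 CPM per kb. ImpL2 with 20.6, foxo with 20.5 and chico with 15.9 CPM per kb came next, and ImpL2 and foxo cannot be ranked at these values. Ilp6, the peptide made mainly by the fat body, stood at 10.6 CPM per kb. Lower still were Ilp3 with 5.80, Ilp2 with 5.36 and InR with 4.29 CPM per kb, and the lowest medians were those of Ilp7, a peptide of ventral nerve cord neurons, with 2.47 CPM per kb and of Ilp5 with 1.62 CPM per kb. Ilp5 had 2 to 124 counts per total RNA library, so its values carry the largest counting error of the 10. Of the other insulin-like peptides, Ilp1 was at 0 to 2 counts in every total RNA library, while Ilp4, known from the embryonic midgut and mesoderm, ranged over the libraries between 0.121 and 6.95 CPM.

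**Figure D1:**
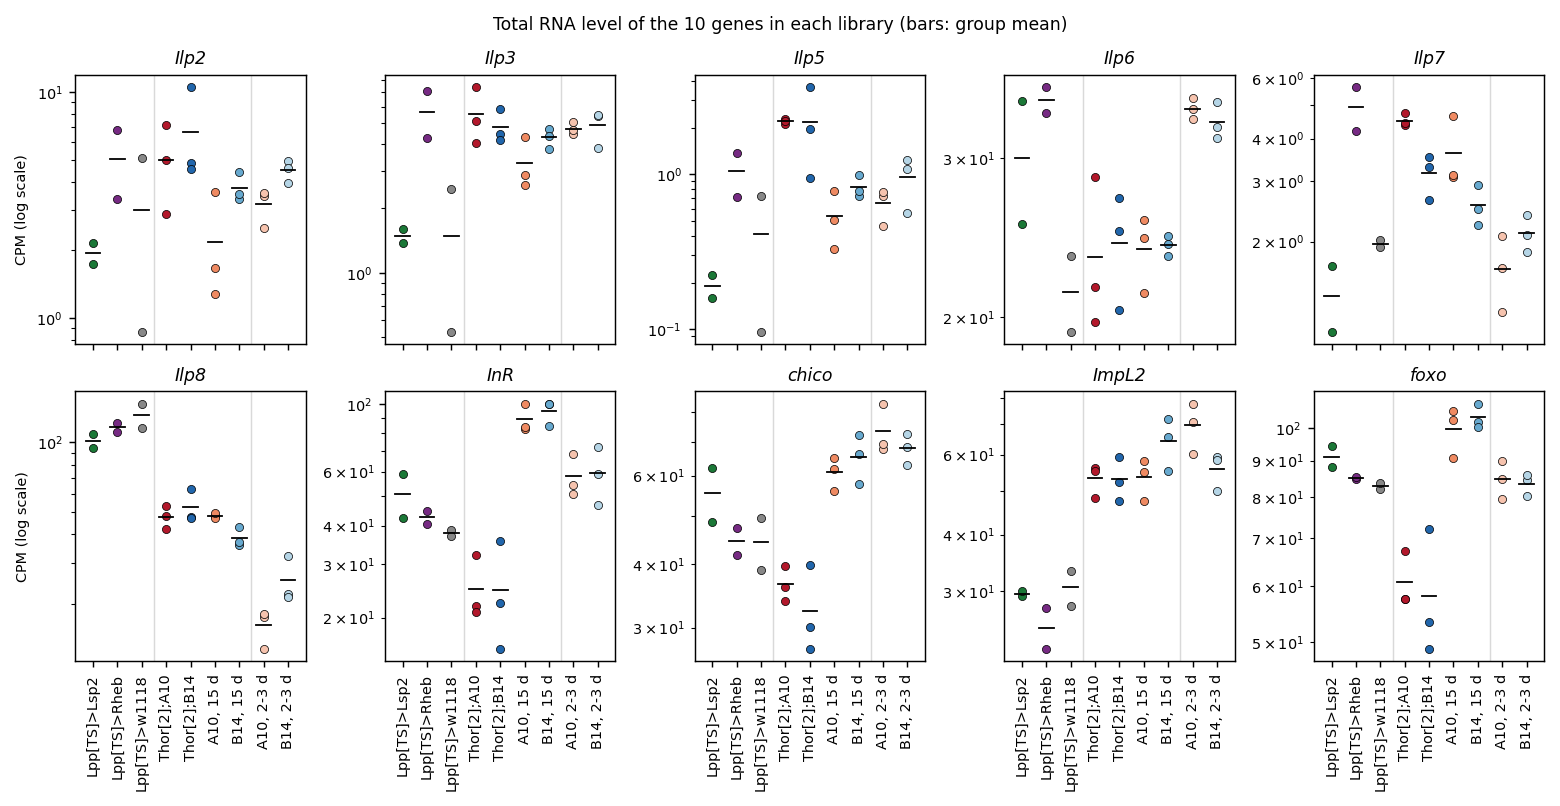
Levels of the 10 genes in total RNA, in CPM on a log axis, with a point per library and a bar at each group's mean, for the 9 groups of genotype and age. Ilp8 separates the groups most widely among the well-counted genes, with group means between 16.2 CPM in Lsp2[A10] at 2 to 3 d and 130.4 CPM in Lpp[TS]>w1118, and InR is lowest in both Thor[2] groups.

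The group means spread differently from gene to gene. Ilp8, a relaxin-like peptide that in larvae signals from damaged or growing discs to delay metamorphosis, had the widest spread of the genes with over 100 counts in every library, with a highest group mean 8.05 times its lowest. InR followed with 3.86 times, ImpL2 with 2.79 times, chico with 2.27 times, foxo with 1.78 times and Ilp6 with 1.63 times. The Lpp[TS] lines, the allele lines at 15 d and the allele lines at 2 to 3 d are in tables of their own, so levels set across these 3 tables were not tested except for age.

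Ilp2, Ilp3 and Ilp5, the peptides of the insulin-producing cells, moved together among libraries of the same group. After each group's mean was removed from log2(CPM + 0.5), the correlation across the 24 total RNA libraries was r = 0.931 and rho = 0.892 for Ilp2 and Ilp3 (permutation p within groups, two-sided, 0.00043 and 0.00051, adjusted over the 3 pairs 0.00129 and 0.00153). For Ilp2 and Ilp5 it was r = 0.769 and rho = 0.763 (permutation p = 0.00189 and 0.00217, adjusted 0.00283 and 0.00325), and for Ilp3 and Ilp5 r = 0.691 and rho = 0.668 (permutation p = 0.00892 and 0.0162, adjusted likewise 0.00892 and 0.0162).

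The Lpp[TS]>w1118 pair shows the pattern in its extreme form. Ilp2 was at 5.12 and 0.864 CPM in those 2 libraries, Ilp3 at 2.46 and 0.528 CPM and Ilp5 at 0.724 and 0.0960 CPM, so that in 1 and the same control library all 3 peptides were low. Without that pair, which lies farthest from the median of Ilp2 and of Ilp3 alike, r was 0.881 for Ilp2 and Ilp3, 0.694 for Ilp2 and Ilp5 and 0.582 for Ilp3 and Ilp5. Within the 12 libraries of the alleles at 15 d, r was 0.943 for Ilp2 and Ilp3, 0.642 for Ilp2 and Ilp5 and 0.457 for Ilp3 and Ilp5, and within the 6 young libraries 0.533, 0.871 and 0.857 in the same order. Values in the 6 Lpp[TS] libraries were 0.979, 0.992 and 0.971, but there 2 replicates a group mirror each other around their mean.

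**Figure D2:**
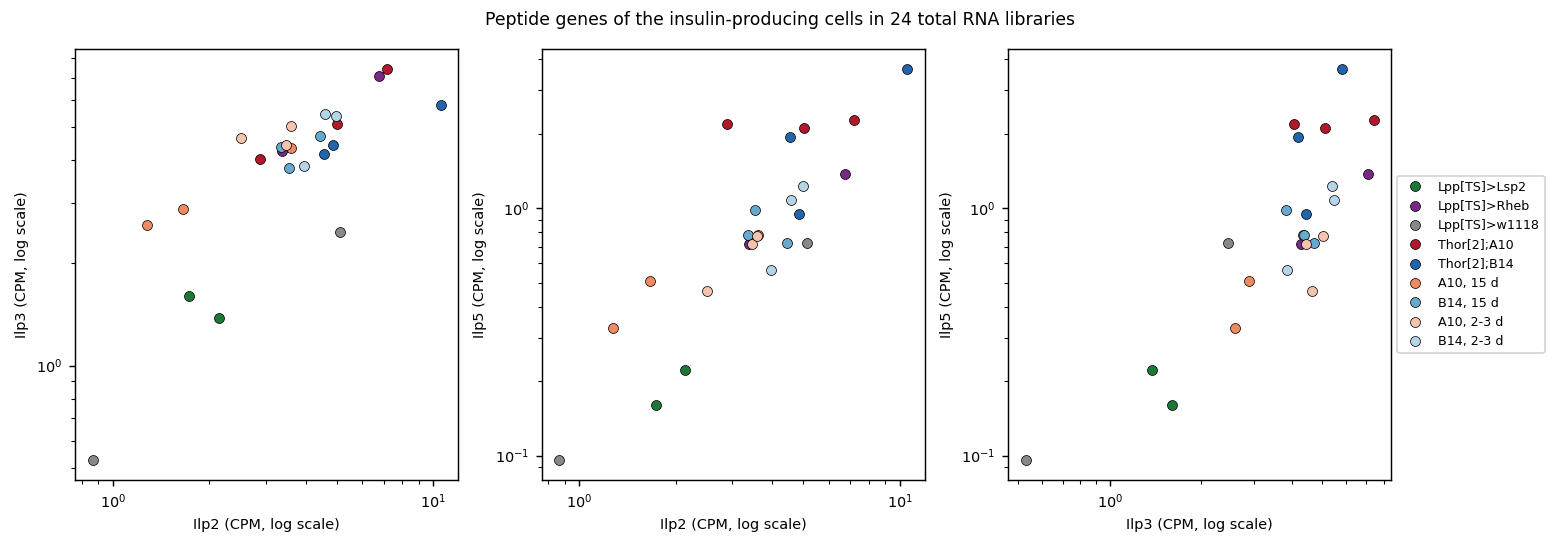
Levels of Ilp3 and Ilp5 against Ilp2 and of Ilp5 against Ilp3, in CPM on log axes, with a point per total RNA library coloured by group (A10 and B14 are the Lsp2 alleles). Libraries high in 1 peptide tend to be high in the others, and a Lpp[TS]>w1118 library lies lowest in all 3 panels, at 0.864 CPM of Ilp2, 0.528 CPM of Ilp3 and 0.0960 CPM of Ilp5.

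Forced expression of Lsp2 in the driver line was set against the driver control. None of the 10 genes changed in total RNA at an adjusted p under 0.05 (edgeR's quasi-likelihood test with Benjamini-Hochberg adjustment over all genes, used throughout), where 0.0166% of 12030 genes did, 2 genes in all, and 465 genes were at an unadjusted p under 0.05. Ilp6 was at 34.7 and 25.4 CPM in Lpp[TS]>Lsp2, against 23.4 and 19.2 CPM in Lpp[TS]>w1118, higher in both libraries, with a log2 difference of 0.44 ± 0.21 (SE) and an adjusted p of 0.908. InR was at 42.3 and 58.9 CPM in Lpp[TS]>Lsp2, against 38.6 and 37.1 CPM in Lpp[TS]>w1118, without overlap (log2 difference 0.36 ± 0.18, adjusted p = 0.908). The driver groups hold 2 libraries each and 1 library decides such values: without Lpp[TS]>Lsp2 replicate 1, InR (0.54, adjusted p = 0.00171) and chico (0.39, adjusted p = 0.0437) were called among 4529 genes, and without Lpp[TS]>Lsp2 replicate 2, Ilp6 was (0.68, adjusted p = 0.0263).

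Forced Rheb expression, which drives mTORC1, likewise left all 10 genes short of the threshold, where 1.53% of the genes passed. Here 3 peptides stood above the control in both libraries without overlap. How many of all genes did so was not counted, and with 2 libraries a group such a separation arises easily. Ilp7 was at 5.67 and 4.21 CPM in Lpp[TS]>Rheb, against 1.93 and 2.02 CPM in Lpp[TS]>w1118, a log2 difference of 1.38 ± 0.38 (adjusted p = 0.206). Ilp3 was at 4.26 and 7.08 CPM in Lpp[TS]>Rheb, against 2.46 and 0.528 CPM in Lpp[TS]>w1118 (1.96 ± 0.72, adjusted p = 0.363).

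Ilp6 was the third, with 36.0 and 33.7 CPM in Lpp[TS]>Rheb, against 23.4 and 19.2 CPM in Lpp[TS]>w1118 (0.76 ± 0.21, adjusted p = 0.197). When the Lpp[TS]>Lsp2 libraries were left out of the fit, Ilp6 (0.78, adjusted p = 0.000568) and Ilp7 (1.40, adjusted p = 0.00288) passed. That fit called 2863 of all genes, where the main fit called 184. The summed adult fat body markers were at 1893 to 2074 CPM in Lpp[TS]>Rheb, against 1834 to 2078 CPM in Lpp[TS]>w1118, and the neuron markers at 174 to 207 CPM, against 153 to 163 CPM. The receptor gene InR and the transcription factor gene foxo lay near the control, with log2 differences of 0.22 ± 0.18 and 0.09 ± 0.12. The interval of 2 SE around the foxo value was -0.15 to 0.33. Both comparisons share the same 2 control libraries.

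Between the alleles, Lsp2[A10] over Lsp2[B14], none of the 10 genes passed in total RNA at 15 d (2.21% of 10354 genes called), at 15 d with Thor[2] (4.16%) or at 2 to 3 d (0.332% of 9952 genes). Ilp8 differed in direction between the ages, each time without overlap. At 15 d it was at 48.1, 46.9 and 49.2 CPM in Lsp2[A10], against 35.9, 37.2 and 42.9 CPM in Lsp2[B14] (log2 difference 0.27 ± 0.11, adjusted p = 0.379). At 2 to 3 d it was at 12.8, 17.6 and 18.2 CPM in Lsp2[A10], against 22.2, 21.4 and 32.4 CPM in Lsp2[B14] (-0.65 ± 0.21, adjusted p = 0.649). The interaction of age and allele was 0.91 ± 0.24 on the log2 scale and missed the threshold (adjusted p = 0.218, with 0.274% of the genes called). ImpL2 ran the other way, 58.2, 47.3 and 54.9 CPM in Lsp2[A10] against 72.0, 65.5 and 55.2 CPM in Lsp2[B14] at 15 d, and 77.7, 60.2 and 70.8 CPM in Lsp2[A10] against 59.4, 58.5 and 49.9 CPM in Lsp2[B14] at 2 to 3 d, with an interaction of -0.63 ± 0.17 (adjusted p = 0.224).

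The libraries labelled Thor[2] differed from their Lsp2 allele controls in the receptor, its substrate and foxo, which fell on both allele backgrounds. With Lsp2[A10], 6 of the 10 genes passed, 3 higher and 3 lower, where 66.8% of all genes did (34.4% higher and 32.3% lower), and with Lsp2[B14] 5 passed, 2 higher and 3 lower, where 69.2% of all genes did (35.2% higher and 34.0% lower). The shares of called genes among the 10 are thus no larger than among all genes. None of the 10 passed the test of a difference between the 2 backgrounds, in which 4.10% of the genes were called.

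InR was at 21.8, 20.8 and 32.0 CPM in Thor[2];Lsp2[A10], against 82.8, 99.9 and 84.1 CPM in Lsp2[A10], and at 15.8, 22.4 and 35.7 CPM in Thor[2];Lsp2[B14], against 84.9, 100.1 and 100.1 CPM in Lsp2[B14]. Every Thor[2] library lay below every control library by a wide margin. The receptor fell by 1.63 ± 0.22 on the log2 scale, to 3.10-fold less, with Lsp2[A10] (adjusted p = 2.59e-05) and by 1.84 ± 0.22, to 3.58-fold less, with Lsp2[B14] (adjusted p = 1.0e-05).

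Chico, the insulin receptor substrate, was at 36.0, 33.8 and 39.8 CPM in Thor[2];Lsp2[A10], against 61.8, 55.9 and 65.0 CPM in Lsp2[A10], and at 27.2, 30.1 and 39.9 CPM in Thor[2];Lsp2[B14], against 57.7, 72.2 and 66.3 CPM in Lsp2[B14]. The groups did not overlap, and chico fell by 0.54 ± 0.12 (adjusted p = 0.00161) and by 0.89 ± 0.12 (adjusted p = 2.69e-05) on the log2 scale. Foxo was at 57.6, 57.5 and 67.2 CPM in Thor[2];Lsp2[A10], against 90.9, 105.6 and 102.8 CPM in Lsp2[A10], and at 48.9, 53.4 and 72.0 CPM in Thor[2];Lsp2[B14], against 108.2, 102.0 and 100.4 CPM in Lsp2[B14]. It was lower in 6 of 6 Thor[2] libraries, by -0.51 ± 0.12 with Lsp2[A10] (adjusted p = 0.00155) and -0.70 ± 0.12 with Lsp2[B14] (adjusted p = 0.000128).

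Total RNA differences in these 2 comparisons went with gene length over the whole table, with a Spearman correlation across genes of -0.678 with Lsp2[A10] and -0.791 with Lsp2[B14] (genes are not independent replicates). Median log2 differences in 5 classes of exonic length, under 1, 1 to 2, 2 to 4, 4 to 8 and over 8 kb, were 0.95, 0.36, -0.23, -0.73 and -0.91 with Lsp2[A10] and 1.04, 0.40, -0.28, -0.92 and -1.30 with Lsp2[B14]. InR lay below the median of its class, genes over 8 kb, by 0.72 and 0.53, at percentiles 10.5 and 14.1 of that class. Chico lay below its own, 2 to 4 kb, by 0.31 and 0.61, whereas foxo lay above its own, 4 to 8 kb, by 0.21 on both backgrounds. Neuron markers summed to 90.0 to 129 CPM in Thor[2];Lsp2[A10], against 178 to 248 CPM in Lsp2[A10], and germline markers to 341 to 383 CPM, against 769 to 874 CPM. With Lsp2[B14] the neuron markers summed to 80.0 to 132 CPM in Thor[2] libraries, against 173 to 277 CPM, and the germline markers to 265 to 415 CPM, against 742 to 915 CPM. The follicle cell and eggshell list went the other way with Lsp2[A10], at 10850 to 14310 CPM in Thor[2] libraries against 6939 to 10680 CPM. With Lsp2[B14] that list overlapped, at 8503 to 11980 CPM in Thor[2] libraries against 7926 to 10010 CPM. The part of length and of these tissues in the falls of InR, chico and foxo was not tested.

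**Figure D3:**
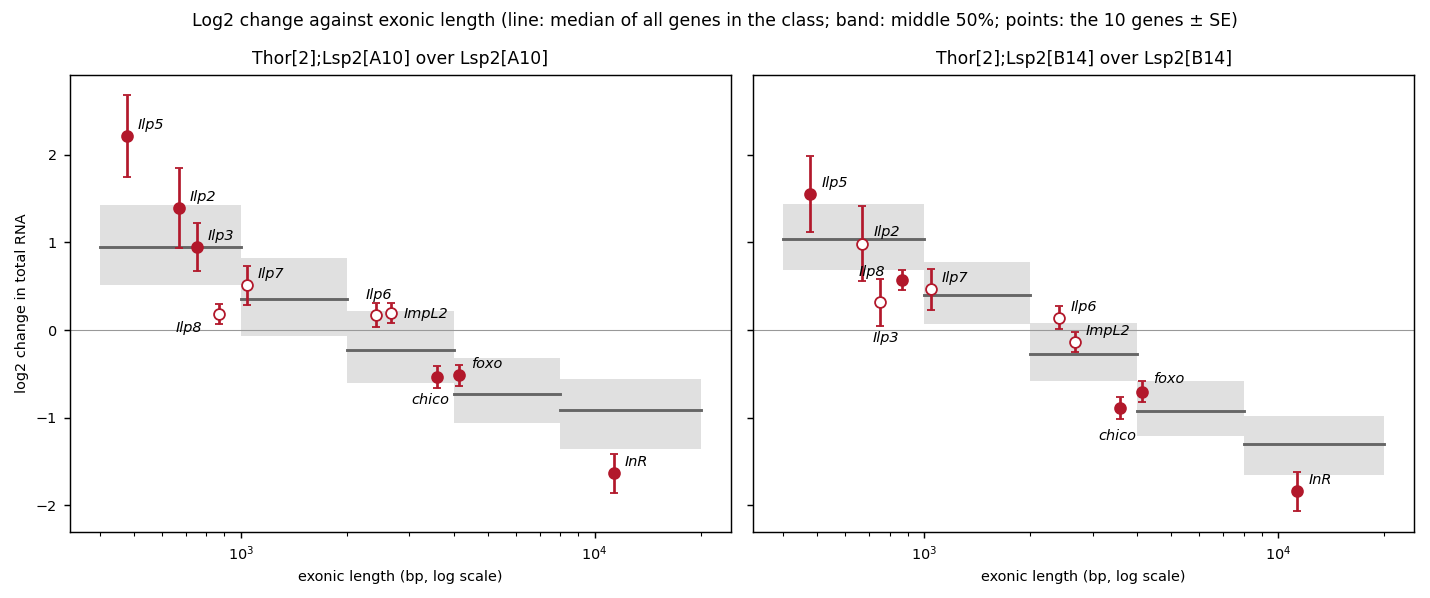
Log2 difference in total RNA between libraries labelled Thor[2] and their allele controls against exonic length (bp, log axis), a panel per allele background, with the 10 genes as named points with bars of 1 SE (filled where the adjusted p is under 0.05). Grey lines and bands give the median and the middle 50% of all genes in each length class, the medians fall from class to class, InR lies under its class's band and Ilp5 above it in both panels.

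The short peptide genes of the insulin-producing cells lay on the high side. Ilp5 was at 2.11, 2.27 and 2.20 CPM in Thor[2];Lsp2[A10], against 0.328, 0.509 and 0.777 CPM in Lsp2[A10], and at 3.66, 0.946 and 1.95 CPM in Thor[2];Lsp2[B14], against 0.725, 0.783 and 0.985 CPM in Lsp2[B14]. The groups were apart with Lsp2[A10] and overlapped with Lsp2[B14]. Ilp5 rose by 2.21 ± 0.47 on the log2 scale with Lsp2[A10] (adjusted p = 0.00086) and by 1.55 ± 0.44 with Lsp2[B14] (adjusted p = 0.0061), and the second call was lost without Thor[2];Lsp2[B14] replicate 1 (0.86, adjusted p = 0.0717). These values lay 1.26 and 0.51 above the median of genes under 1 kb.

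Ilp2 was at 5.02, 7.16 and 2.88 CPM in Thor[2];Lsp2[A10], against 1.27, 1.65 and 3.60 CPM in Lsp2[A10], overlapping in 1 library of each, and at 10.5, 4.84 and 4.55 CPM in Thor[2];Lsp2[B14], against 4.43, 3.35 and 3.53 CPM in Lsp2[B14], without overlap. It rose with Lsp2[A10] (1.39 ± 0.45, adjusted p = 0.0150) and missed the threshold with Lsp2[B14] (0.99 ± 0.43, adjusted p = 0.0548), where DESeq2 gave an adjusted p of 0.0357. The first call was lost without Lsp2[A10] replicate 1 (1.10, adjusted p = 0.0642), without Lsp2[A10] replicate 2 (1.23, adjusted p = 0.0567) or without Thor[2];Lsp2[A10] replicate 2 (1.04, adjusted p = 0.0790). Ilp3 rose with Lsp2[A10] by 0.95 ± 0.27 (adjusted p = 0.00688), at the median of its length class, and stood at 0.32 with Lsp2[B14], below that median by 0.72.

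Ilp8 rose with Thor[2] on the Lsp2[B14] background alone in these tests, by 0.57 ± 0.11 on the log2 scale (adjusted p = 0.000519), with 47.7, 47.2 and 62.9 CPM in Thor[2];Lsp2[B14] against 35.9, 37.2 and 42.9 CPM in Lsp2[B14]. That rise lay 0.47 below the median of genes under 1 kb, at percentile 18.5 of that class. With Lsp2[A10] its difference was 0.19, below that median by 0.76, and the difference between the backgrounds missed the threshold (-0.39 ± 0.16, adjusted p = 0.209). Ilp6 stood at 0.17 and 0.14, Ilp7 at 0.51 (adjusted p = 0.0582) and 0.46 (adjusted p = 0.0865), and ImpL2 at 0.19 and -0.14, none of them called. Ilp7 passed without Lsp2[A10] replicate 3 (0.75, adjusted p = 0.0123) and without Thor[2];Lsp2[B14] replicate 3 (0.59, adjusted p = 0.0446).

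Between 2 to 3 d and 15 d, Ilp6 and Ilp8 moved in opposite directions in both allele lines. In Lsp2[A10], 7 of the 10 genes passed, 3 higher and 4 lower at 15 d, where 44.6% of 10224 genes did (20.8% higher and 23.8% lower), and in Lsp2[B14] 3 passed, 2 higher and 1 lower, where 38.1% of the genes did (18.3% higher and 19.8% lower). The 2 ages come from separate count tables, so age cannot be told apart from whatever else differs between those tables.

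Ilp8 was at 48.1, 46.9 and 49.2 CPM in Lsp2[A10] at 15 d, against 12.8, 17.6 and 18.2 CPM at 2 to 3 d, and at 35.9, 37.2 and 42.9 CPM in Lsp2[B14] at 15 d, against 22.2, 21.4 and 32.4 CPM at 2 to 3 d. All 15 d libraries lay above all young ones. Ilp8 rose by 1.40 ± 0.17 on the log2 scale, 2.64-fold, in Lsp2[A10] (adjusted p = 5.23e-05) and by 0.49 ± 0.17 in Lsp2[B14] (adjusted p = 0.0369). The second call was lost in the fit of the compared groups alone (adjusted p = 0.0658) and without Lsp2[B14] replicates 2 (0.52, adjusted p = 0.0605) or 3 (0.41, adjusted p = 0.116) at 15 d, or 1 (0.37, adjusted p = 0.127) or 2 (0.37, adjusted p = 0.146) at 2 to 3 d. The eggshell list summed to 6939 to 10680 CPM in Lsp2[A10] at 15 d, against 7340 to 9946 CPM at 2 to 3 d, and to 7926 to 10010 CPM in Lsp2[B14] at 15 d, against 10120 to 10590 CPM at 2 to 3 d. The ranges overlap in Lsp2[A10] and do not in Lsp2[B14], and the part of the eggshell tissue in the Ilp8 values was not tested.

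Ilp6, which in adults is known as a Foxo target induced by fasting in the fat body, was at 25.6, 21.3 and 24.5 CPM in Lsp2[A10] at 15 d, against 34.0, 33.2 and 35.0 CPM at 2 to 3 d, and at 24.1, 24.6 and 23.4 CPM in Lsp2[B14] at 15 d, against 34.6, 31.6 and 32.4 CPM at 2 to 3 d. Old and young libraries did not overlap in either line. Ilp6 fell by 0.67 ± 0.09 (adjusted p = 6.48e-05) and by 0.56 ± 0.09 (adjusted p = 0.000295) on the log2 scale, at percentiles 11.5 and 11.8 of its length class. Adult fat body markers summed to 4075 to 5108 CPM in Lsp2[A10] at 15 d, against 3596 to 4043 CPM at 2 to 3 d, and to 4513 to 5531 CPM in Lsp2[B14], against 3139 to 3174 CPM at 2 to 3 d. Gene by gene, 0 of the 7 markers rose and 2 fell in Lsp2[A10], and 2 rose and 0 fell in Lsp2[B14], and the part of the fat body in the fall of Ilp6 was not tested.

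InR was higher at 15 d in both lines, with 82.8, 99.9 and 84.1 CPM in Lsp2[A10] against 68.6, 54.2 and 50.9 CPM at 2 to 3 d, and 84.9, 100.1 and 100.1 CPM in Lsp2[B14] against 72.0, 59.0 and 46.8 CPM at 2 to 3 d. The groups did not overlap, and InR rose by 0.47 ± 0.13 (adjusted p = 0.0130) and by 0.58 ± 0.13 (adjusted p = 0.00481), at percentiles 88.6 and 93.7 of its length class. In Lsp2[A10] the call was lost without replicate 2 at 15 d (0.39, adjusted p = 0.0597) and without replicates 2 (0.43, adjusted p = 0.0530) or 3 (0.39, adjusted p = 0.0639) at 2 to 3 d. Foxo stood at 0.08 ± 0.08 in Lsp2[A10] and 0.20 ± 0.08 in Lsp2[B14] (adjusted p = 0.429 and 0.0558). With scaling by library totals, which raised the median of all genes to 0.15 and 0.11, foxo passed in both lines (0.24 with an adjusted p of 0.0305, and 0.31 with 0.00998).

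The other calls with age were in Lsp2[A10] and not in Lsp2[B14]. Ilp7 rose by 0.94 ± 0.25 (adjusted p = 0.00913), with 3.08, 3.14 and 4.66 CPM at 15 d against 1.24, 2.07 and 1.67 CPM at 2 to 3 d, and stood at 0.14 in Lsp2[B14]. ImpL2, which binds insulin-like peptides in the haemolymph and restrains them, fell by 0.53 ± 0.12 (adjusted p = 0.00327) and stood at 0.10 in Lsp2[B14]. Chico, with 61.8, 55.9 and 65.0 CPM at 15 d against 83.3, 67.8 and 69.3 CPM at 2 to 3 d, fell by 0.42 ± 0.10 (adjusted p = 0.00415) and stood at -0.16 in Lsp2[B14]. With library totals its call was lost (-0.27, adjusted p = 0.0533).

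Ilp3 was at 2.59, 2.88 and 4.34 CPM in Lsp2[A10] at 15 d, against 4.45, 5.06 and 4.64 CPM at 2 to 3 d, without overlap. It fell by 0.69 ± 0.23 in Lsp2[A10] (adjusted p = 0.0259) and stood at -0.32 in Lsp2[B14]. That call depended on single libraries, being lost with library totals (-0.53, adjusted p = 0.0536) and without replicates 1 (-0.54, adjusted p = 0.0883) or 2 (-0.60, adjusted p = 0.0909) at 15 d, or 2 (-0.62, adjusted p = 0.0883) or 3 (-0.69, adjusted p = 0.0614) at 2 to 3 d. Ilp2 stood at -0.70 ± 0.33 in Lsp2[A10] (adjusted p = 0.0977), and passed without Lsp2[A10] replicate 3 at 15 d (-1.29, adjusted p = 0.00253). None of the 10 genes passed the test of a different age change in the 2 lines.

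**Figure D4:**
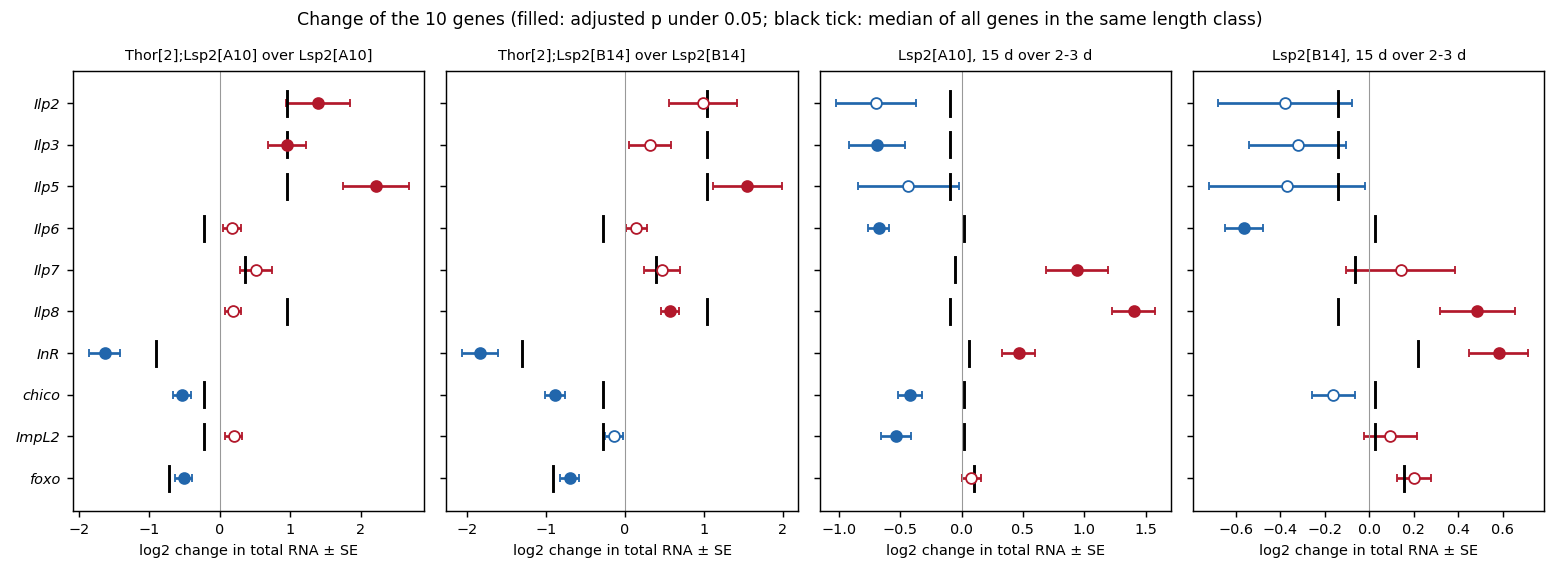
Log2 differences of the 10 genes in total RNA with bars of 1 SE, for Thor[2] over its control on each allele background and for 15 d over 2 to 3 d in each allele line, with scales that differ between the panels. Filled points have an adjusted p under 0.05 and black ticks give the median of all genes in the same length class, InR, chico and foxo being filled on the low side in both Thor[2] panels, Ilp8 on the high side and Ilp6 on the low side in both age panels.

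Polysome loading was measured as the log2 ratio of a gene's scaled level in the polysome library to that in the total RNA library of the same powder, called translational efficiency (TE). ImpL2 had the highest TE of the genes counted well enough, which were 9 (Ilp5 averaged under 50 counts). Its log2 ratio ran between 0.47 and 1.82 over the 24 samples with a median of 1.0, above the median of all genes in 24 of 24 samples and at a median percentile of 83.9. Chico was at the low end, with a median percentile of 8.61, InR stood at 16.8 and foxo at 24.9. Chico and foxo were below the median of all genes in every sample, and InR in all but 1, Lsp2[A10] replicate 1 at 15 d.

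Relative to total RNA and the median gene, then, transcripts of chico, foxo and, in 23 of 24 samples, InR were underrepresented on polysomes. Those of the secreted inhibitor ImpL2 were overrepresented. Set against the monosome library instead, InR lay above the median of all genes in 19 of 24 samples and foxo in 16. ImpL2 did so in 11 and chico in 6. In TE the peptides lay between these genes, Ilp3 at a median percentile of 74.7, Ilp2 at 61.1 and Ilp8 at 58.6. Ilp7 was at 55.1 (18 samples with enough counts) and Ilp6 at 50.5. TE itself went with exonic length. In Lsp2[B14] at 15 d the median log2 TE was 1.51 for genes under 1 kb and -0.72 for genes over 8 kb. Group means of Ilp2 (1.07), Ilp3 (0.98) and Ilp8 (0.51) there lay below the first of these. In Lpp[TS]>w1118 the medians were 0.28 and -0.18, with Ilp2 at 0.98, Ilp3 at 1.17 and Ilp8 at 0.22. TE differences also went with length in several comparisons, which is given beside the results below.

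**Figure D5:**
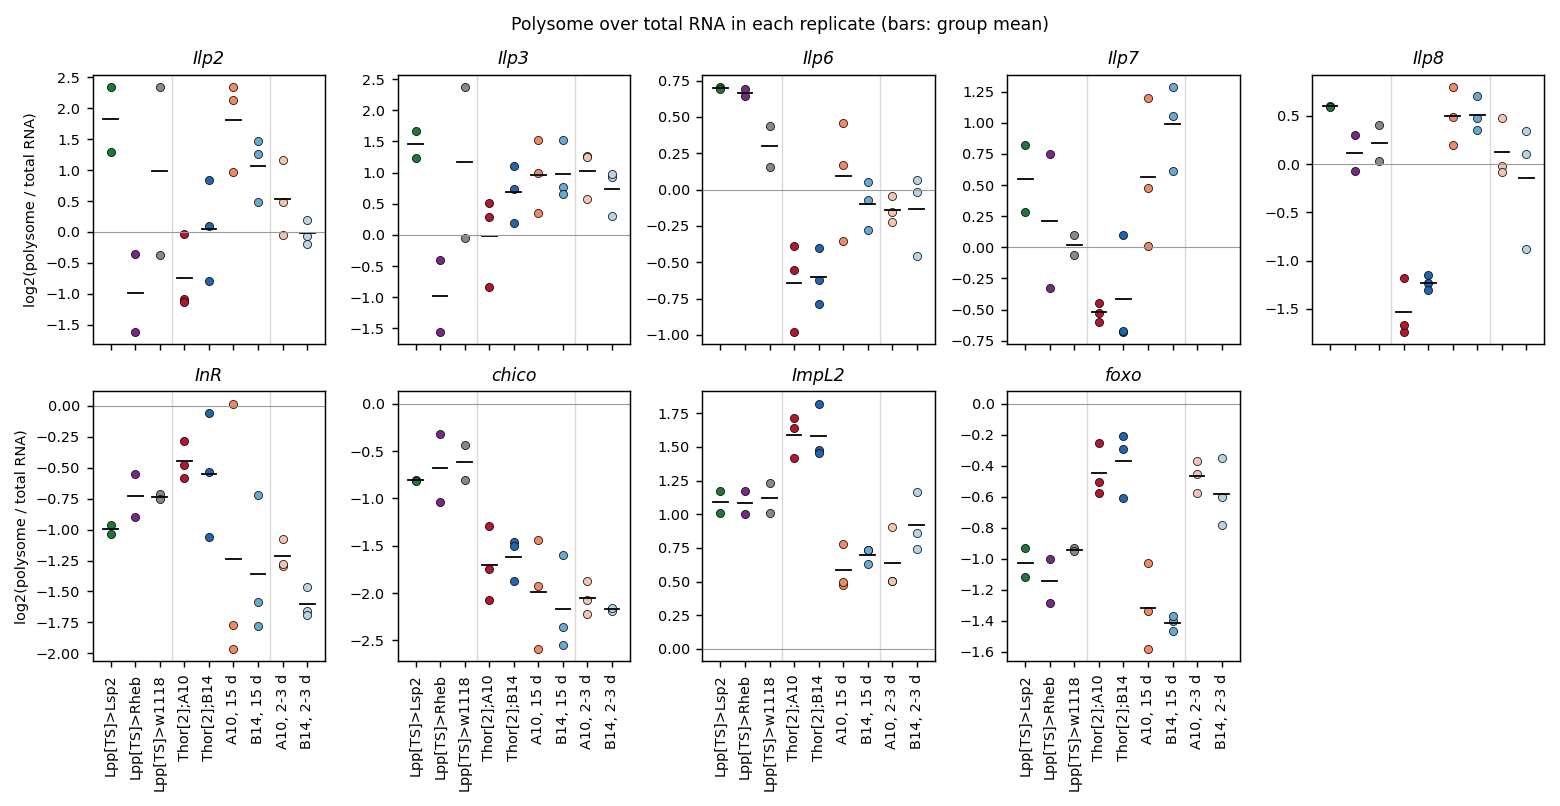
Log2 ratio of polysome to total RNA level for the genes with enough counts, with a point per sample and a bar at each group's mean, for the 9 groups. ImpL2 lies between 0.47 and 1.82 in all samples and highest in both Thor[2] groups, Ilp8 is lowest in the Thor[2] groups, and foxo is lower in the allele lines at 15 d than at 2 to 3 d.

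Forced expression of Lsp2 or Rheb gave no call in TE for any gene of the table (0% of 12796 genes, with 285 and 179 genes at an unadjusted p under 0.05, and 1 and 4 genes called by DESeq2). Neither did the alleles at 15 d (0% of 11062 genes, 756 at an unadjusted p under 0.05 and 65 called by DESeq2). None of the 10 genes passed between the alleles with Thor[2] (0.0904% of the genes called) or at 2 to 3 d (0.0687% of 10185 genes). The polysome and total RNA libraries of a powder form a pair, and with the powder as a replicate block the calls among all genes came to 1589 at 2 to 3 d, 16 with Thor[2] and 3 for Lsp2 expression. Ilp6 stood at a log2 TE difference of 0.37 ± 0.28 in Lpp[TS]>Rheb and 0.40 ± 0.28 in Lpp[TS]>Lsp2.

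In libraries labelled Thor[2], ImpL2 and foxo rose in TE and Ilp7 and Ilp8 fell on both backgrounds. With Lsp2[A10], 8 of the 10 genes passed, 2 higher and 6 lower, where 41.0% of all genes did (18.0% higher and 23.0% lower), and with Lsp2[B14] 4 passed, 2 each way, where 43.6% did (20.3% higher and 23.3% lower). TE differences went with exonic length in both comparisons, with a Spearman correlation across genes of 0.515 and 0.629.

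Ilp8 had polysome levels of 12.4, 11.6 and 21.4 CPM in Thor[2];Lsp2[A10], against 51.0, 75.7 and 63.3 CPM in Lsp2[A10], and of 18.9, 20.1 and 20.9 CPM in Thor[2];Lsp2[B14], against 44.0, 48.2 and 46.7 CPM in Lsp2[B14]. Its log2 TE was -1.74, -1.67 and -1.18 in Thor[2];Lsp2[A10], against 0.20, 0.80 and 0.48 in Lsp2[A10], and -1.15, -1.23 and -1.30 in Thor[2];Lsp2[B14], against 0.47, 0.70 and 0.36 in Lsp2[B14]. All 6 Thor[2] samples lay well below all 6 controls. TE of Ilp8 fell by 1.99 ± 0.24 (adjusted p = 9.09e-07) and by 1.68 ± 0.24 (adjusted p = 7.69e-06) on the log2 scale, below the median of its length class by 1.25 and 0.82.

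Monosome levels of Ilp8 were also low, 6.80, 24.6 and 16.2 CPM in Thor[2];Lsp2[A10] against 65.4, 84.7 and 75.4 CPM in Lsp2[A10], and 30.5, 47.8 and 30.1 CPM in Thor[2];Lsp2[B14] against 57.0, 60.9 and 60.7 CPM in Lsp2[B14]. With the monosome in place of the total RNA library as the denominator, the Ilp8 differences were 0.42 and -0.44 and passed on neither background. That holds for most calls of this comparison: of the 12 calls in TE with Thor[2], only ImpL2 with Lsp2[B14] passed in polysome over monosome as well. Both ribosome fractions of Ilp8 were thus lower with Thor[2] while its total RNA was not.

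ImpL2 had a log2 TE of 1.71, 1.42 and 1.64 in Thor[2];Lsp2[A10], against 0.47, 0.78 and 0.50 in Lsp2[A10], and of 1.48, 1.45 and 1.82 in Thor[2];Lsp2[B14], against 0.63, 0.74 and 0.73 in Lsp2[B14]. The groups were far apart, and TE rose by 1.04 ± 0.18 (adjusted p = 5.96e-05) and by 0.94 ± 0.18 (adjusted p = 0.000146), above the median of its length class by 0.90 and 0.70. Total RNA of ImpL2 gave no call there, while its polysome level was higher, 137.8, 131.5 and 157.7 CPM in Thor[2];Lsp2[A10] against 74.7, 75.2 and 71.2 CPM in Lsp2[A10].

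Foxo had a log2 TE of -0.25, -0.58 and -0.50 in Thor[2];Lsp2[A10], against -1.03, -1.34 and -1.58 in Lsp2[A10], and of -0.29, -0.21 and -0.61 in Thor[2];Lsp2[B14], against -1.41, -1.47 and -1.37 in Lsp2[B14]. The groups did not overlap. TE rose by 0.92 ± 0.18 (adjusted p = 0.000206) and by 1.10 ± 0.18 (adjusted p = 3.07e-05), 0.29 and 0.31 above the median of its length class. Its polysome level overlapped between the groups, at 42.1, 33.9 and 43.4 CPM in Thor[2];Lsp2[A10] and 41.2, 38.7 and 31.5 CPM in Lsp2[A10], while its total RNA was lower.

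Ilp7 fell in TE by 1.23 ± 0.37 with Lsp2[A10] (adjusted p = 0.00904) and by 1.35 ± 0.37 with Lsp2[B14] (adjusted p = 0.00508), and the first call was lost without Lsp2[A10] replicate 2 (-0.97, adjusted p = 0.0827). Ilp2 fell by 2.52 ± 0.54 with Lsp2[A10] (adjusted p = 0.000606), with a log2 TE of -1.08, -1.13 and -0.04 in Thor[2];Lsp2[A10] against 2.34, 2.14 and 0.97 in Lsp2[A10], and stood at -1.07 ± 0.50 with Lsp2[B14] (adjusted p = 0.0868). Ilp6 fell by 0.79 ± 0.21 with Lsp2[A10] (adjusted p = 0.00458) and stood at -0.45 with Lsp2[B14] (adjusted p = 0.0890). Both of these passed with Lsp2[B14] in the fit of the compared groups alone (Ilp2 -1.14, adjusted p = 0.0499, Ilp6 -0.51, adjusted p = 0.0414). Ilp7 lay below the median of its length class by 0.89 with Lsp2[A10] and 0.99 with Lsp2[B14]. In the same order, Ilp2 lay below its own by 1.78 and 0.22, and Ilp6 by 0.92 and 0.69.

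The calls of Ilp3 (-0.99 ± 0.37, adjusted p = 0.0361) and Ilp5 (-1.77 ± 0.62, adjusted p = 0.0238) with Lsp2[A10] rested on few counts. They lay 0.25 and 1.03 below the median of genes under 1 kb, Ilp3 at percentile 36.8 of that class. Ilp3 was lost with the replicate block (-0.90, adjusted p = 0.0909), and without Lsp2[A10] replicates 1 (-0.93, adjusted p = 0.0657) or 2 (-0.66, adjusted p = 0.262) or Thor[2];Lsp2[A10] replicate 2 (-0.58, adjusted p = 0.267). Ilp5 was lost without Lsp2[A10] replicate 2 (adjusted p = 0.0795) or without Thor[2];Lsp2[A10] replicates 1 (adjusted p = 0.0681) or 2 (adjusted p = 0.0539). InR gave no call, at 0.72 ± 0.52 with Lsp2[A10] and 0.78 with Lsp2[B14] (adjusted p = 0.295 and 0.244). On these backgrounds InR lay 0.13 and 0.28 below the median of genes over 8 kb. Its polysome level was 77.5 CPM in Lsp2[A10] replicate 1, the shallowest polysome library (3.13 M counts), and 23.6 and 22.6 CPM in the others. Without that replicate the InR value with Lsp2[A10] was 1.43 (adjusted p = 0.00758). In an unplanned fit without the 2 replicates with the shallowest polysome libraries, InR passed on both backgrounds (1.39, adjusted p = 0.000922, and 1.06, adjusted p = 0.00783). Chico with Lsp2[B14] (0.62, adjusted p = 0.0790) passed there too (0.81, adjusted p = 0.0120).

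With age, foxo changed in TE in both lines. Its log2 TE was -1.03, -1.34 and -1.58 in Lsp2[A10] at 15 d, against -0.45, -0.37 and -0.58 at 2 to 3 d, and -1.41, -1.47 and -1.37 in Lsp2[B14] at 15 d, against -0.35, -0.78 and -0.60 at 2 to 3 d. No 15 d sample overlapped a young one. It fell by 0.81 ± 0.15 (adjusted p = 0.000568) and by 0.80 ± 0.14 (adjusted p = 0.000332), below the median of its length class by 0.54 and 0.70. In Lsp2[A10] 2 of the 10 genes passed, 1 each way, where 29.7% of 10514 genes did (18.5% higher and 11.1% lower), and in Lsp2[B14] 4 passed, 3 higher and 1 lower, where 30.0% did (18.6% higher and 11.5% lower). In polysome over monosome the Lsp2[A10] call of foxo was lost (-0.49, adjusted p = 0.165) and the Lsp2[B14] call was kept.

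Ilp2 rose in TE with age in both lines, by 1.20 ± 0.42 in Lsp2[A10] (adjusted p = 0.0360) and 1.09 ± 0.40 in Lsp2[B14] (adjusted p = 0.0446), and Ilp7 (1.12 ± 0.42, adjusted p = 0.0485) and Ilp8 (0.72 ± 0.25, adjusted p = 0.0371) rose in Lsp2[B14]. These 4 calls lie near the threshold, and 7, 8, 10 and 8 of 14 alternatives each, in that order, lost them. TE differences with age went with exonic length, with a Spearman correlation across genes of -0.451 in Lsp2[A10] and -0.289 in Lsp2[B14]. Ilp2 lay above the median of its length class by 0.55 in Lsp2[A10] and 0.60 in Lsp2[B14]. In Lsp2[B14], Ilp7 lay above its own by 0.87 and Ilp8 by 0.22. With the replicate block Ilp8 was at 0.70 (adjusted p = 0.0628), and without Lsp2[B14] replicate 3 at 2 to 3 d its value was 0.20 (adjusted p = 0.539).

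Genes listed for signalling around the receptor and Akt, sgg and wdb among them, were mostly lower in the Thor[2] comparisons, as InR was. Of 13 tested, 2 rose and 10 fell with Lsp2[A10] (median -0.69, against 0.04 for all genes) and 1 rose and 11 fell with Lsp2[B14] (median -0.72, against 0.03). Of all genes, 34.4% rose and 32.3% fell with Lsp2[A10], and 35.2% rose and 34.0% fell with Lsp2[B14]. By exonic length, the medians of all genes were -0.23 and -0.28 at 2 to 4 kb and -0.73 and -0.92 at 4 to 8 kb. The part of length in the values of this list was not tested. The catalytic subunit of phosphoinositide 3-kinase, Pi3K92E, fell by 1.11 and 1.35 on the log2 scale, its adaptor subunit Pi3K21B by 1.08 and 1.02, and sgg, the GSK3 kinase that Akt inhibits, by 0.77 and 1.10. With age, 4 rose and 1 fell in Lsp2[A10] (median 0.17, against -0.01 for all genes) and 6 rose and 1 fell in Lsp2[B14] (median 0.23, against 0.00), where 20.8% of all genes rose and 23.8% fell in Lsp2[A10] and 18.3% rose and 19.8% fell in Lsp2[B14]. Pi3K21B rose by 0.58 and 0.61 and Pdk1 by 0.29 and 0.31.

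In TE, 3 of these 13 genes rose and 1 fell with Thor[2] and Lsp2[A10] (median 0.13, against -0.06 for all genes), and 5 rose with Lsp2[B14] (median 0.26, against 0.00). Of all genes, 18.0% rose and 23.0% fell in TE with Lsp2[A10] and 20.3% rose and 23.3% fell with Lsp2[B14]. Of the list, 0 fell with Lsp2[B14], and its distance from that background was not tested. Pi3K21B rose by 1.53 and 1.55 in the Thor[2] libraries and fell by 1.14 and 1.26 with age. Sdr, which encodes a secreted decoy of the receptor, was the single gene called of 3 tested among binding proteins and other receptors in Thor[2] total RNA. It averaged 5.09 ± 0.922 CPM in Thor[2];Lsp2[A10], against 11.9 ± 1.48 CPM in Lsp2[A10] (SD, n = 3 each), and fell by 1.02, and by 0.70 with Lsp2[B14]. With age Sdr rose by 0.67 and 0.62.

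Among 6 Foxo targets tested, which include InR and Ilp6, 3 rose and 2 fell with Thor[2] and Lsp2[A10] (median 0.25, against 0.04 for all genes), and 1 rose and 2 fell with Lsp2[B14] (median -0.06, against 0.03). With 34.4% of all genes higher and 32.3% lower with Lsp2[A10], and 35.2% and 34.0% with Lsp2[B14], these counts lie near the background. The lipase gene Lip4 rose by 1.12 and 0.90, and the triglyceride lipase gene bmm fell by 0.36 and 0.65. With age 1 rose and 3 fell in each line (medians -0.42 and -0.22, against -0.01 and 0.00 for all genes), where 20.8% of all genes rose and 23.8% fell in Lsp2[A10] and 18.3% rose and 19.8% fell in Lsp2[B14], and the 1 that rose was InR. Thor fell by 1.35 ± 0.12 (adjusted p = 1.88e-06) and 1.43 ± 0.12 (adjusted p = 1.07e-06) on the log2 scale, Lip4 by 0.79 and 0.43, and Ilp6 as given above. The targets thus did not move in 1 direction with age: InR rose while Thor, Lip4 and Ilp6 fell.

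Of 13 tested genes for signals to the insulin-producing cells, 8 rose and 2 fell with Thor[2] and Lsp2[A10] (median 0.71, against 0.04 for all genes), and 7 rose and 3 fell with Lsp2[B14] (median 0.50, against 0.03). Of all genes, 34.4% rose and 32.3% fell with Lsp2[A10] and 35.2% rose and 34.0% fell with Lsp2[B14]. All genes under 1 kb had medians of 0.95 and 1.04, and those of 1 to 2 kb 0.36 and 0.40. The part of length in these rises was not tested. Lst, a corpora cardiaca hormone that suppresses insulin release, averaged 129 ± 6.96 CPM in Thor[2];Lsp2[A10], against 54.1 ± 1.89 CPM in Lsp2[A10], and 60.7 ± 5.11 CPM in Thor[2];Lsp2[B14], against 42.9 ± 3.78 CPM in Lsp2[B14] (SD, n = 3 each). It rose by 1.45 and 0.64 on the log2 scale, and the test of that difference between backgrounds passed (0.81 ± 0.12, adjusted p = 0.00372). Akh, the adipokinetic hormone of the same gland, rose by 1.31 (adjusted p = 0.0478) and 2.56 (adjusted p = 0.00171). Gbp1, a growth-blocking peptide of the fat body, rose by 1.64 and 1.29, and sun, which encodes a further fat body signal, by 1.50 and 1.64. With age, of 14 tested, 0 rose and 3 fell in Lsp2[A10] (median -0.05), and 1 rose and 3 fell in Lsp2[B14] (median 0.10). The background was 20.8% higher and 23.8% lower in Lsp2[A10] and 18.3% and 19.8% in Lsp2[B14]. The gene sun fell by 1.08 and 1.24 and CCHa2, a nutrient-dependent peptide hormone, by 0.54 and 0.49. Of these 4 lists, no gene passed with Lsp2 or Rheb expression or between the alleles without Thor[2] at 15 d or 2 to 3 d in total RNA. Between the alleles with Thor[2], 2 of 13 tested signal genes were higher in Thor[2];Lsp2[A10], where 4.16% of all genes were called.

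The 3 genes that fell with Thor[2] had near copies of their pattern across the 24 total RNA libraries, after each count table's mean was removed from log2(CPM + 0.5) and among 9782 genes. InR was most like cnc and upSET (r = 0.993 each), chico like br (0.982) and PAPLA1 (0.981), and foxo like InR and cnc (0.980 each). InR and chico had r = 0.952 with each other. The peptides had looser likenesses, Ilp2 with Ilp5 (0.843) and Ilp3 (0.824), Ilp3 with CG33510 (0.847) and CG13795 (0.846), Ilp6 with Bcat (0.817) and AOX1 (0.810), Ilp7 with CG8281 (0.822) and Cyp4s3 (0.811), and Ilp8 with Yod1 (0.765) and Jon99Cii (0.747). ImpL2 was most like Cad96Ca (0.743) and CG2765 (0.733). These correlations describe libraries that share tables, groups and the length pattern given above.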

How the data were processed

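The values deposited by the authors are raw gene counts in 3 tables (Lpp[TS] lines, alleles at 15 d, alleles at 2 to 3 d), whole numbers with a column per library. Per the submitters' processing notes, fastp 0.23.2, Bowtie2 2.3.4.1, STAR 2.2.1, featureCounts 1.6.0 and R 4.2.0 were used with the BDGP6 build. Symbols, coordinates and exonic lengths come from the BDGP6.54 annotation, matched by FlyBase identifier for 23851 of 23932 and 13915 of 13925 features.

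From the counts, edgeR 4.0.16 in R 4.3.3 fitted a robust quasi-likelihood model after its default filter on low counts, with TMM scaling, a mean per group, all groups of a table sharing the spread, and a prior count of 0.125. Total RNA was fitted alone. TE was the interaction of polysome and total RNA libraries, without a block for shared powder. Age comparisons joined the alleles' tables. Benjamini-Hochberg adjustment ran over all genes tested, with a threshold of 0.05. CPM use the library total. Alternatives were other scaling (RLE, library totals), no filter, a mean of 50 counts, DESeq2 1.42.0, a replicate block, the compared groups alone, polysome over monosome, and each library left out. The code was tested on simulated data. Correlations used 100000 permutations.

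The members and gene lists were chosen with earlier results of these data known. All 10 members were described in every comparison, and from each other list at most 4 called genes with the largest change were eligible to be named; Ilp1 and Ilp4 are given by level, and Thor, Lsp2, Rheb, Lst, Akh and Sdr by level as well. The label batch repeats genotype and fraction and cannot be told apart from them. Same-numbered total RNA samples of 2 groups did not deviate together throughout (r from -0.429 to 0.436). A polysome and a total RNA library of a sample share their powder by protocol (r from -0.124 to 0.687). Counts may include PCR duplicates, for which no molecular identifiers are recorded.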

Additional observations from a re-analysis of the deposited data

How the results depend on the processing

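Among 39 calls of the 10 genes, 462 alternative values kept direction and side of the threshold, 69 lost the threshold and 3 reversed. The reversals were in polysome over monosome with Thor[2] and Lsp2[A10], for Ilp5 (0.51), Ilp6 (0.035) and Ilp8 (0.42). That setting left 0 of 8 calls in TE with Lsp2[A10], 1 of 4 with Lsp2[B14] and 0 of 2 with age in Lsp2[A10]. Over all genes it called 30, 51 and 503, where the main fits called 4536, 4823 and 3118. Overlap between these sets was not counted.

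For members, Lsp2 expression gave 0 to 2 calls in total RNA with each library left out, Rheb expression 2 in the fit of the compared groups alone, the alleles at 2 to 3 d 1 with the replicate block (Ilp8, -0.63, adjusted p = 0.0249), and age by allele 1 by DESeq2 (Ilp8, 0.92, adjusted p = 0.0427). TE calls with Thor[2] and Lsp2[A10] ranged between 5 and 8 with each library left out. TE calls with age in Lsp2[A10] were 1 with library totals, 1 in the compared groups alone and 1 to 2 with each library left out. In Lsp2[B14] they were 1 with RLE, 1 with library totals, 2 without the filter, 2 in the compared groups alone and 1 to 3 with each library left out. The cause was not tested.

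Counts of all genes moved most where calls were few. In total RNA, Lsp2 expression gave 2 genes, or 13 without the filter, 9 at a mean of 50, 73 by DESeq2 and 1 with the replicate block; Rheb expression 184, or 322 without the filter, 732 by DESeq2, 102 with the block, 2863 in the compared groups alone and 1 to 3 with a library left out; the alleles 229 at 15 d and 431 with Thor[2], or 392 and 664 by DESeq2; Thor[2] by allele 424, or 752 by DESeq2; the alleles at 2 to 3 d 33, or 58 without the filter, 117 by DESeq2 and 139 with the block; age by allele 28, or 103 by DESeq2 and 14 with the block. In TE, the alleles with Thor[2] gave 10, or 67 by DESeq2 and 4 in the compared groups alone, and at 2 to 3 d 7, or 529 by DESeq2 and 1589 with the block.

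Scaling by library totals moved the median of all genes to -0.16 and -0.11 with Thor[2] and to 0.15 and 0.11 with age. It moved the higher and lower calls to 2785 and 4209 with Lsp2[A10] and Thor[2] (3566 and 3349 by TMM), to 222 and 129 for Thor[2] by allele (316 and 108), to 1 and 10 in TE for the alleles with Thor[2] (3 and 7), to 3430 and 1617 with age in Lsp2[A10] (2127 and 2433), to 2854 and 1455 with age in Lsp2[B14] (1874 and 2025), and in TE with age to 1456 and 1523 (1946 and 1172) and to 1283 and 1550 (1952 and 1207).

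Same-numbered samples of 2 genotypes deviated together in some comparisons and apart in others. Between the alleles at 2 to 3 d, r was 0.436, -0.21 and 0.407 for replicates 1, 2 and 3. In the Lpp[TS] lines, where same-numbered samples of Lpp[TS]>Lsp2 and the control had r = -0.429, a crossed pairing, chosen after seeing the data, gave 0 calls of members and 1 gene. Few counts limit Ilp5, Ilp7, Ilp2 and Ilp3.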

Other observations

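Ilp4 had few counts and belonged to none of the groups of the 10 genes. It averaged 4.37 ± 2.44 CPM in Thor[2];Lsp2[A10], against 1.67 ± 1.27 CPM in Lsp2[A10], and 2.06 ± 0.546 CPM in Thor[2];Lsp2[B14], against 0.439 ± 0.428 CPM in Lsp2[B14] (SD, n = 3 each). It rose by 1.59 ± 0.58 (adjusted p = 0.0276) and by 2.36 ± 0.67 (adjusted p = 0.00663) on the log2 scale in edgeR's quasi-likelihood test, in comparisons that called 66.8% and 69.2% of all genes.

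The polysome libraries held a further difference in Thor, whose label is used above. Its log2 TE fell by 0.96 with Thor[2] and Lsp2[A10] and by 1.21 with Lsp2[B14], and it rose by 0.97 and 0.84 with age in Lsp2[A10] and Lsp2[B14], where its total RNA fell. In these comparisons 41.0%, 43.6%, 29.7% and 30.0% of all genes were called.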
